A study of Mus musculus with 7 samples.

Results

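The genes described here make, modify, move and break down the ceramides of the skin barrier. They were chosen by name: 33 mouse genes for fatty acid elongation, fatty acid uptake and hydroxylation, sphingoid base synthesis, ceramide synthases and desaturases, acylceramide and triglyceride metabolism, head groups and transport, breakdown, and cholesterol sulfate. Of these 33 genes, 32 had a row among the 14820 genes of the table and 31 passed a filter on low values (mean 10 or more among the controls or among the p16 papillomas). Sts, the steroid sulfatase that removes sulfate from cholesterol sulfate, was not analysed here. Cyp4f39, a hydroxylase of ultra-long-chain fatty acids, fell under the filter with 1 to 4 reads in each papilloma and was not tested.

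Skin papillomas, benign tumours of the epidermis, were dissected whole and their RNA was read by CEL-Seq2, which sequences transcript 3′ ends. The 4 control papillomas came from mice that carried tet-p16 alone, a doxycycline-inducible human p16 transgene without its activator. The 3 p16 papillomas came from K5-rtTA/tet-p16 mice, in which the activator rtTA is driven by the keratin 5 promoter and p16, an inhibitor of cyclin-dependent kinases, is therefore switched on in keratinocytes. The tet-p16 line was of mixed C57Bl6 and 129sv background and the K5-rtTA line was FVB. All mice were females, received 50 nmol of the mutagen DMBA once on the skin at 3 weeks of age, and from the week after that were given doxycycline in the drinking water and the tumour promoter TPA on the skin. They were followed for 23 weeks, and the papillomas were taken at 27 weeks of age, 10 days after the last TPA dose. The controls thus shared DMBA, TPA, doxycycline and the tet-p16 allele with the p16 group and lacked K5-rtTA. Whether each lesion of a group was from a different mouse is not in the labels, and the p-values thus reflect variation between lesions, which may share a mouse.

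Epidermal keratinocytes build ceramides from serine and palmitoyl-CoA, joining the resulting sphingoid base to fatty acids that are elongated to unusual lengths. In the upper layers the longest ceramides are linked to linoleate, given a glucose head group, loaded into lamellar granules and secreted, and between the cornified cells they form the water barrier with cholesterol and free fatty acids. Loss of several of these enzymes causes ichthyosis in people or a lethal barrier defect in mice.

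Of the 31 genes tested, 4 rose in p16 papillomas (12.9%, against 2.66% of all genes tested) and 1 fell (3.23%, against 2.96%), at an adjusted p under 0.05 in limma. The genes were chosen with earlier results of these data known, so these shares are not those of an independently chosen set. Elovl5, Elovl7, Acer1 and Pnpla1 were 1.57-fold to 2.22-fold higher, and Sult2b1 was at 0.474 of its control level. The other 26 did not pass the test, among them the genes for most steps of ceramide assembly. The DNA upstream of the 5 genes that passed is shown so that the sequences which precede their starts can be compared. Each line holds the 250 bases before a start in RefSeq (build GRCm38.p6), written 5′ to 3′ on the gene's own strand, and Sult2b1 has 2 annotated starts. Capitals mark a match to TGANTCA (the AP-1 motif) or to CCAAT, which appears as ATTGG where it lies on the opposite strand.
Elovl5, chr9:77917115-77917364, plus strand: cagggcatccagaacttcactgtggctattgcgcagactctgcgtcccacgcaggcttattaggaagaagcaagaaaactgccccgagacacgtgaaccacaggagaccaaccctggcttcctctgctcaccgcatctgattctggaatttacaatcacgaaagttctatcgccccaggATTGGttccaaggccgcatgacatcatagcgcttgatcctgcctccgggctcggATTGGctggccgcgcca
Elovl7, chr13:108214154-108214403, plus strand: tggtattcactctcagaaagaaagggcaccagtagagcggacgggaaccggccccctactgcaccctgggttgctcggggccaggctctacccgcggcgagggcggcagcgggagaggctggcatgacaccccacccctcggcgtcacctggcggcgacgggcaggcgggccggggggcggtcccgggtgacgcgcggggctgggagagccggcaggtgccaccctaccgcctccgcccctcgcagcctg
Acer1, chr17:56982127-56982376, minus strand: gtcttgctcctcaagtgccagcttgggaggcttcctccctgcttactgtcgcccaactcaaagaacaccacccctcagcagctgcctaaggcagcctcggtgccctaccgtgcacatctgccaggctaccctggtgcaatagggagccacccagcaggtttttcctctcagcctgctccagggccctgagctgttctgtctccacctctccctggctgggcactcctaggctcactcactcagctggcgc
Pnpla1, chr17:28858161-28858410, plus strand: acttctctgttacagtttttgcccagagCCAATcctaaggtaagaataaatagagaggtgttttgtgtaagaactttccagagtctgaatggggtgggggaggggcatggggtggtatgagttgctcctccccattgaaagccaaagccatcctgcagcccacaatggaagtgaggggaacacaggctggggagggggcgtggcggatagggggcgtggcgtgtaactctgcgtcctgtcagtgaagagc
Sult2b1, chr7:45759613-45759862, minus strand: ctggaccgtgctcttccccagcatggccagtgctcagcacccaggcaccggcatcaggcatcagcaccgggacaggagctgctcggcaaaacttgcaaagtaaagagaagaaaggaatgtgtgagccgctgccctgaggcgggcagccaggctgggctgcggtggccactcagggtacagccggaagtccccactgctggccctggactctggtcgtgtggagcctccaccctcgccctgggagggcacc
Sult2b1, chr7:45742479-45742728, minus strand: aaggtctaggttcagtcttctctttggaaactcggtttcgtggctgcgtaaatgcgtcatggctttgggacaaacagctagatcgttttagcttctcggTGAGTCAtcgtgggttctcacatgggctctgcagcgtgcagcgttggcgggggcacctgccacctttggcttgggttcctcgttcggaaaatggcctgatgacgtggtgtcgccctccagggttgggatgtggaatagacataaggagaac

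Both strands were searched for the AP-1 motif TGANTCA and for CCAAT, and also for the TATA box written TATAAA, the grainyhead motif written AACCGGTT and the PPAR direct repeat. No match overlaps another in these 6 windows. Elovl5 held CCAAT 71 and 17 bases before its start, Pnpla1 held it 222 bases before, and the second Sult2b1 start had an AP-1 match 151 bases before it. Elovl7, Acer1 and the other Sult2b1 start held none of the 5 motifs. RefSeq windows were found for 28 of the genes, 40 windows in all. Some genes had several windows, Sgms2 and Sgms1 the most, so the 40 are not separate genes. Among these 40, 5 held the AP-1 motif (12.5%), against 4.89% of the 10338 windows of tested genes and 6.75% of all 32851 windows. Of the windows with AP-1, 1 was of Sgms1 and more than 1 of Sgms2. In all, 11 of the 40 held CCAAT (27.5%), against 34.7% and 33.8%. The TATA box was in 0 of the 40 windows, in 6.97% of those of tested genes and in 12.4% of all. The grainyhead motif was in 1 of the 40, a window of Sgms1 (0.203% and 0.116%), and the PPAR repeat in 0 (0.00967% and 0.0335%). CpG dinucleotides were dense before Elovl7, with 25 in the window, and sparse before Acer1, with 4. The median was 13.5 over the 40 windows and 6 over all 32851, which include windows of untested genes. A median over the windows of tested genes alone was not taken. These matches describe the letters and say nothing of binding.

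Values are normalized read counts, that is, reads divided by a size factor for each papilloma. Group means carry the SD with n = 4 control and n = 3 p16 papillomas, and values in single papillomas are given in the order control 1, 2, 3 and 5, then p16 1, 2 and 3. Libraries held 1158035 to 4365391 reads, p16 2 being the shallowest, so that 1 read was worth 0.735 to 2.89 normalized counts. The test was limma on log2(value + 1) over all 10466 genes that passed the filter, two-sided, and a gene passed at a p under 0.05 after Benjamini-Hochberg adjustment. A log2 change is p16 minus control, given ± its standard error. Because a papilloma is a mixture, fewer cells of a type and less RNA per cell cannot be told apart.

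The share of the 31 genes that passed in either direction was 16.1%, where 5.62% of all tested genes passed. At an unadjusted p under 0.05 there were 10 (32.3%) against 21.2% of all genes, 8 with higher means in p16 (9.66% of all genes) and 2 with lower means (11.6% of all genes). In 7 (22.6%) the groups did not overlap, against 19.6% of all genes, 6 of them with p16 above control (9.25% of all genes) and 1 below (10.4% of all genes). The median log2 change over the 31 was 0.12, with 18 positive and 13 negative, and over all tested genes it was -0.02, with 47.9% positive. Cers2, 1 of the 2 with lower means, reached the filter's mean of 10 only in controls (15.6, against 6.55 in p16). Elovl3 (12.2, against 4.53 in controls) and Asah1 (13.6, against 8.12) reached it only in p16. These genes thus entered the counts through the group where they were higher.

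**Figure D1:**
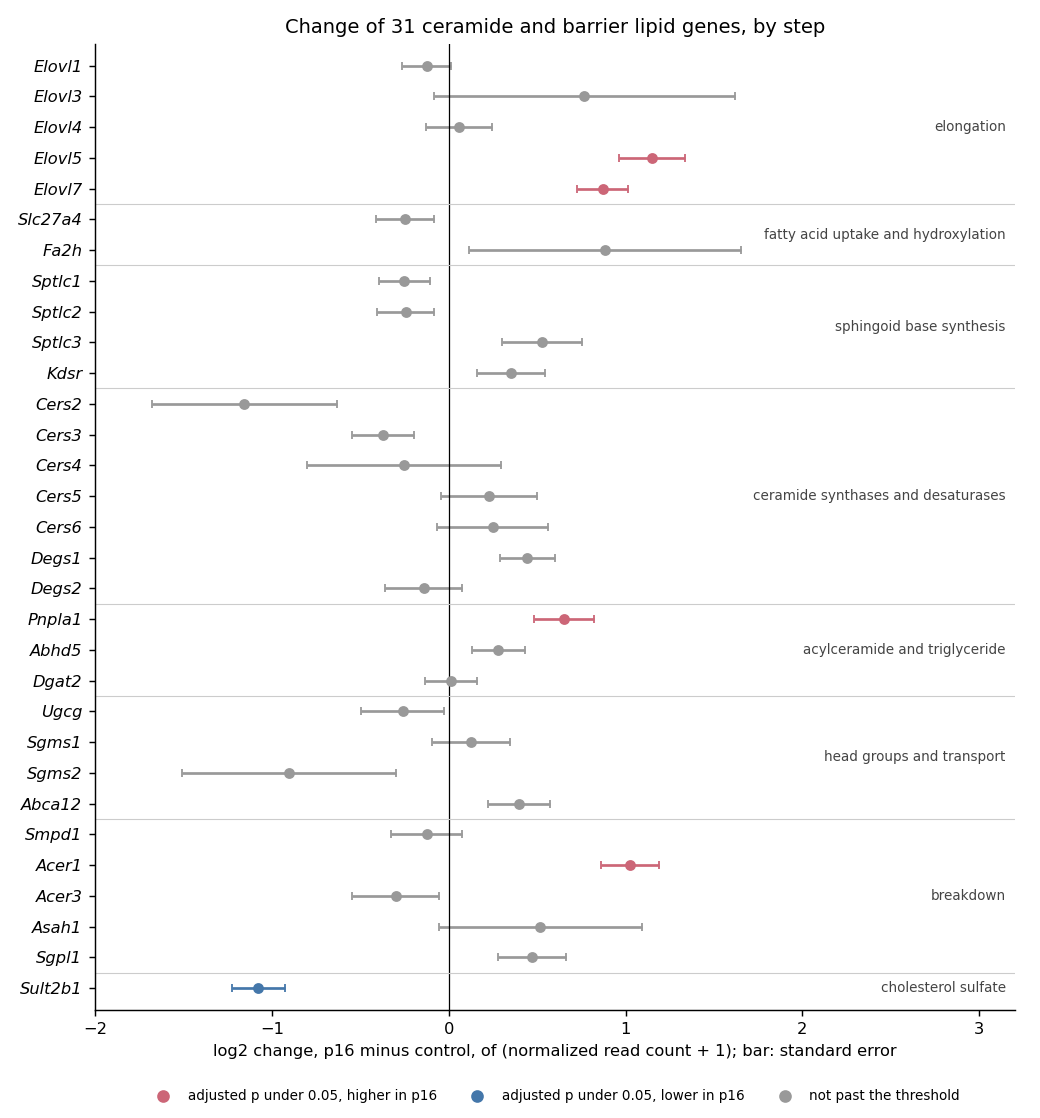
Log2 change (p16 minus control, x axis) of the 31 tested genes, ordered by step on the y axis; points are estimates, bars standard errors, and colour marks the genes past the threshold. The 5 coloured genes fall in 4 steps: Elovl5 at 1.15 and Elovl7 at 0.87 in elongation, Pnpla1 at 0.65, Acer1 at 1.03 and Sult2b1 at -1.08.

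Fatty acid elongation held 2 of the 4 rises. Elovl5 (ENSMUSG00000032349, chr9:77917364-77984519), an elongase of polyunsaturated fatty acids, was at 83.7, 76.1, 61.2 and 79.0 in the controls and at 161, 148 and 194 in the p16 papillomas. All p16 values lay above all control values. The mean rose from 75.0 ± 9.73 to 168 ± 23.8, a log2 change of 1.15 ± 0.19 (limma, adjusted p = 0.00437). Elovl7 (ENSMUSG00000021696, chr13:108214404-108285683), which elongates saturated long-chain acyl-CoA, was at 815, 783, 740.5 and 859 in the controls and at 1408, 1719 and 1287 in p16. These groups were also separate, and the mean rose from 799 ± 50.0 to 1472 ± 223, by 0.87 ± 0.14 (limma, adjusted p = 0.00521).

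The elongases that make the longest chains did not pass. Elovl4, which produces the ultra-long-chain fatty acids of acylceramide, ranged from 3527 to 5754 in controls and from 4569 to 5251 in p16, a log2 change of 0.06 ± 0.19 (limma, adjusted p = 0.900). Elovl1, an elongase of saturated very-long-chain fatty acids required for the mouse skin barrier, had means of 813 ± 68.7 and 746 ± 59.3, and its log2 change was -0.12 (limma, adjusted p = 0.654). Elovl3, an elongase known from sebaceous glands and brown fat, was covered by few reads, 2 to 10 per control and 1, 3 and 36 in the p16 papillomas. Its p16 values overlapped those of the controls and its log2 change was 0.77 ± 0.85.

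Slc27a4, the fatty acid transport protein whose loss impairs the newborn skin barrier in mice, had means of 791 ± 141 and 659 ± 56.4 and did not pass (log2 change -0.25, limma, adjusted p = 0.424). Fa2h, the 2-hydroxylase of sphingolipid fatty acids, was at 4.27, 4.83, 15.5 and 34.8 in the controls and at 6.73, 20.3 and 58.8 in p16, so that both groups spanned a wide range and overlapped. Fa2h, Elovl3 and Cers4, a ceramide synthase, were each highest in p16 3. The summed level of the sebocyte markers ranged from 301 to 823 in controls and from 285 to 1494 in p16, p16 3 again being highest. Most of that p16 3 sum was Krt79, at 902. Scd1, Awat1, Far2, Krt79 and Soat1 were each highest in p16 3, whereas Scd3, Awat2, Dgat2l6 and Cidea were each highest in a control. The part of sebocytes in the levels of Fa2h, Elovl3 and Cers4 was not tested. Of 9 listed sebocyte markers with a row, 6 passed the filter and 0 passed the test, and of the defining markers Awat2, a wax synthase, was at 0 in control 1, control 2 and p16 2, whereas Scd3 was low, at 1.35 to 10.04. Mc5r was not analysed here.

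**Figure D2:**
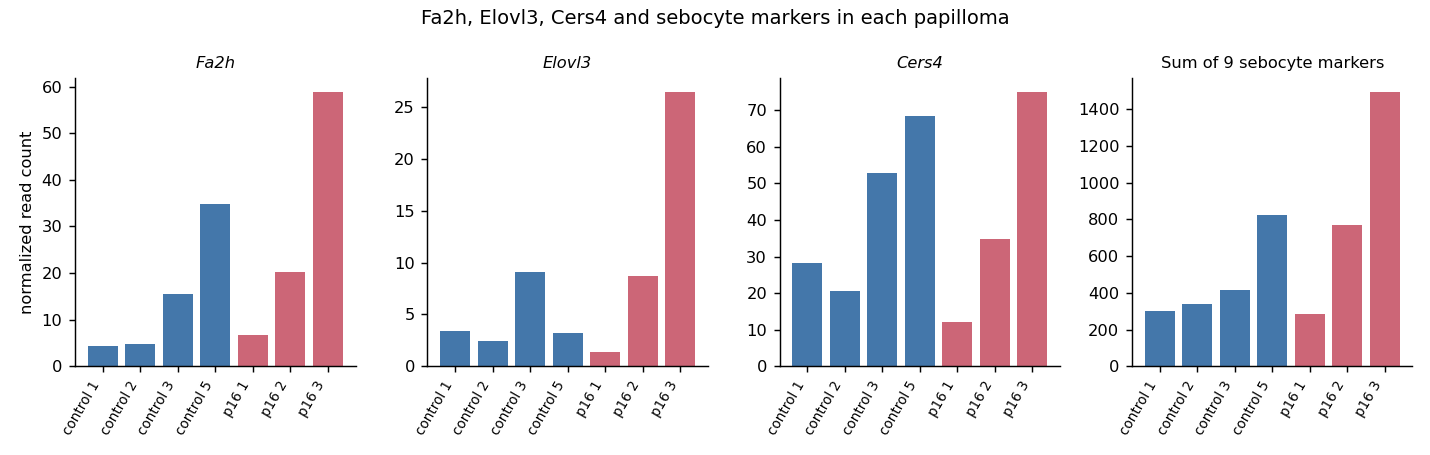
Normalized read count (y axis, each panel from 0) of Fa2h, Elovl3, Cers4 and the sebocyte markers in each of the 7 papillomas (x axis). In the Fa2h panel p16 3 is highest at 58.8 and control 5 reaches 34.8, and p16 1 and p16 2 lie within the range of the controls.

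None of the 4 genes of sphingoid base synthesis passed. Sptlc1, the subunit shared by all forms of serine palmitoyltransferase, had means of 856 ± 69.3 and 722 ± 96.0, with a log2 change of -0.25. Sptlc2, its usual catalytic partner, had means of 214 ± 28.5 and 179.7 ± 9.46, and Kdsr, the reductase of the next step, had 140.2 ± 30.5 and 176 ± 8.21. Sptlc3, the alternative catalytic subunit that also makes shorter sphingoid bases, was at 133, 118, 85.8 and 135.9 in the controls and at 227, 153 and 136.0 in p16. Its groups met at their edges without overlapping, and its log2 change of 0.52 ± 0.23 had an unadjusted p of 0.0396 and missed the threshold (limma, adjusted p = 0.208).

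Sptlc3 was also set against Sptlc2 within each papilloma, as the log2 ratio of the values after adding 1 to each. This ratio was -0.59, -0.97, -1.06 and -0.82 in the controls and 0.42, -0.29 and -0.41 in p16, so that every p16 papilloma lay above every control. The means of -0.86 ± 0.20 and -0.10 ± 0.45 differed by 0.77, and the exact two-sided permutation test gave p = 0.0571, the smallest that 4 against 3 papillomas allow (adjusted over 5 ratios, 0.286). The other 4 ratios had exact permutation p-values of 0.114 to 0.343, adjusted 0.286 to 0.343. These were Degs2 to Degs1 with a difference of -0.59, Sgms2 to Sgms1 with -1.03, Elovl4 to Elovl1 with 0.18 and Cers3 to Cers2 with 0.78.

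**Figure D3:**
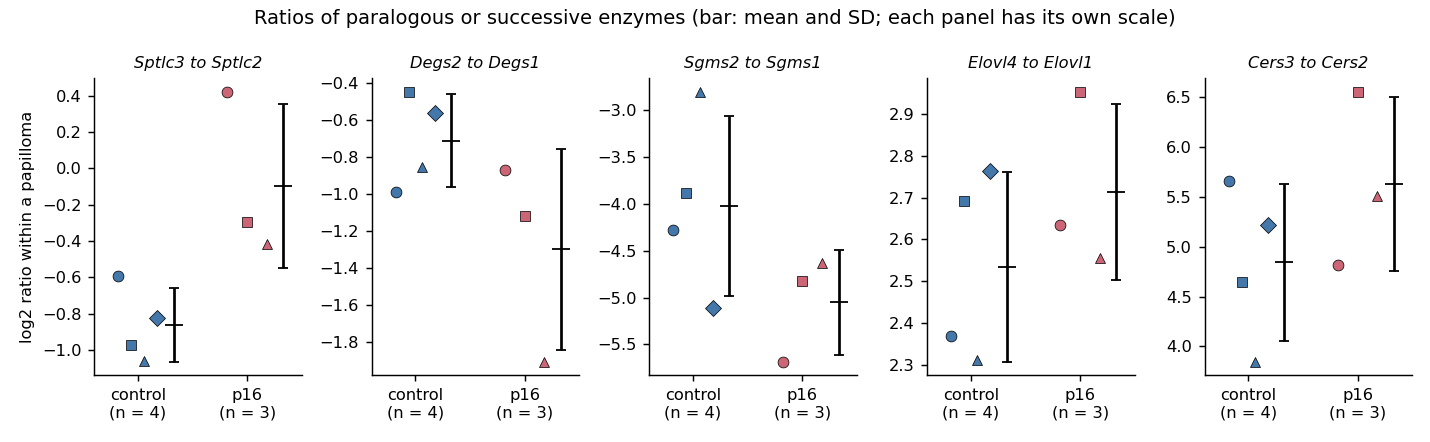
Log2 ratio of paired enzymes within each papilloma (y axis, each panel with its own scale) in 4 control and 3 p16 papillomas (x axis); points are papillomas and bars the mean and SD. In the Sptlc3 to Sptlc2 panel the p16 points, from -0.41 to 0.42, all lie above the controls, from -1.06 to -0.59.

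Ceramide synthases, which attach the fatty acid to the sphingoid base, and the desaturases that follow them gave 0 calls among 7 genes, with 2 at an unadjusted p under 0.05 (Degs1 and Cers2). Over the alternative tools, edgeR and DESeq2 on recovered reads also called neither. Degs1, the desaturase that turns dihydroceramide into ceramide, was at 691, 512, 489 and 573 in the controls and at 716, 770.0 and 809 in p16. Its groups did not overlap, yet its log2 change of 0.44 ± 0.15 missed the threshold (limma, unadjusted p = 0.0142, adjusted p = 0.121), and without control 1 it passed (0.54, adjusted p = 0.0469). Cers2, the synthase for very-long-chain ceramides in many tissues, was at 8.54, 19.3, 22.8 and 11.6 in the controls and at 9.42, 2.89 and 7.35 in p16. It rested on 1 to 25 reads per papilloma, its groups overlapped, and its log2 change of -1.16 ± 0.52 had an unadjusted p of 0.0484 (limma, adjusted p = 0.232).

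Cers3, the synthase that uses ultra-long-chain fatty acids in epidermis, had means of 450.1 ± 74.1 and 346 ± 46.3, a log2 change of -0.37 (limma, adjusted p = 0.249). Cers4 ranged from 20.5 to 68.5 in controls and from 12.1 to 75.0 in p16. Cers5 and Cers6 had low means, 24.4 and 24.0 in controls against 28.5 and 28.4 in p16. Degs2, which also hydroxylates and so makes phytoceramide, had means of 345 ± 53.0 and 319 ± 92.5. None of these passed the test.

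**Figure D4:**
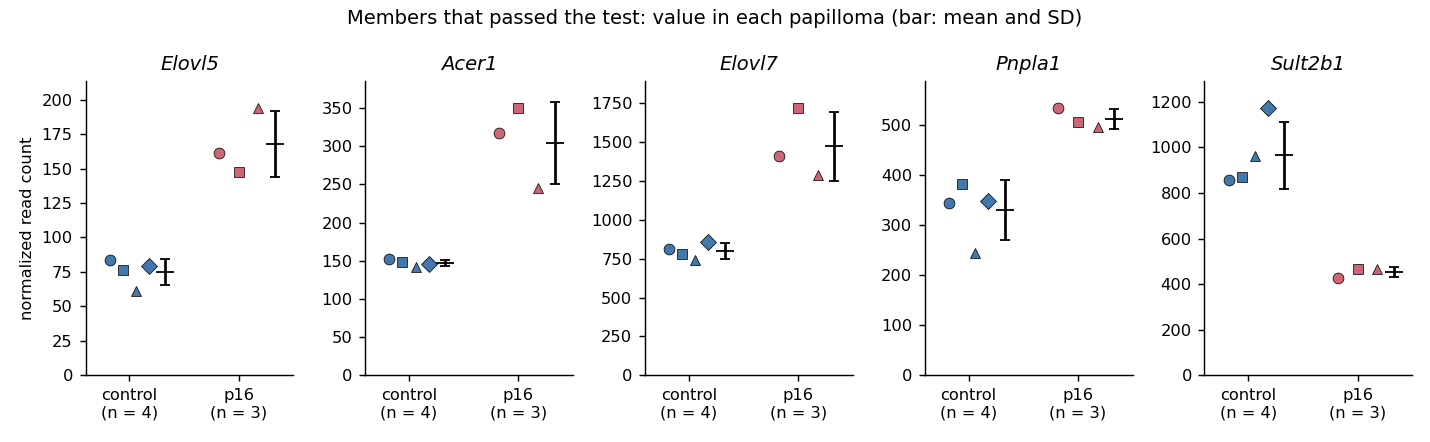
Normalized read count (y axis, from 0 in each panel) of the 5 genes that passed the test, in 4 control and 3 p16 papillomas (x axis); points are papillomas and bars the mean and SD. In each panel the groups do not overlap: Elovl5, Elovl7, Acer1 and Pnpla1 are higher in p16 and Sult2b1 is lower.

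Pnpla1, the transacylase that links linoleate to ultra-long-chain ceramide, was the gene called in acylceramide metabolism. Pnpla1 (ENSMUSG00000043286, chr17:28858411-28890309) was at 345, 382, 244 and 349 in the controls and at 534, 507 and 496 in p16, with no overlap. The mean went from 329.8 ± 59.7 to 512 ± 19.6, a log2 change of 0.65 ± 0.17 (limma, adjusted p = 0.0477). This call stood near the threshold and was lost when any 1 of the 7 papillomas was left out (log2 change 0.51 to 0.73, adjusted p = 0.0563 to 0.132). Abhd5, which assists Pnpla1 and also activates triglyceride breakdown, had means of 1153 ± 136 and 1398 ± 147 (log2 change 0.28, limma, adjusted p = 0.301). Dgat2, which completes triglycerides, had 494 ± 26.1 and 502 ± 74.9.

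Abca12, the transporter that fills lamellar granules with glucosylceramide, was at 329.7, 374, 269 and 378 in the controls and at 514, 463 and 361 in p16. The lowest p16 value lay within the control range, and its log2 change of 0.40 ± 0.18 missed the threshold (limma, unadjusted p = 0.0457, adjusted p = 0.226). Ugcg, the glucosylceramide synthase, had means of 519.5 ± 145 and 422 ± 70.7, and Sgms1, a sphingomyelin synthase of the Golgi, 367 ± 103 and 392 ± 65.1. Sgms2, its plasma membrane counterpart, ranged from 7.38 to 63.9 in controls and from 8.07 to 13.2 in p16. None of the 4 genes of this step passed.

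Among the genes of breakdown, Acer1 rose. Acer1 (ENSMUSG00000045019, chr17:56953490-56982126), an alkaline ceramidase of differentiated epidermis that releases sphingosine from ceramide, was at 152, 149, 142 and 145 in the controls, which lay close together, and at 317, 350.2 and 245 in p16. The mean rose from 147 ± 4.12 to 304 ± 54.0, a log2 change of 1.03 ± 0.16 (limma, adjusted p = 0.00404). Sgpl1, the lyase that degrades sphingosine phosphate, was at 289.5, 339, 396 and 344 in the controls and at 492, 605 and 352 in p16, overlapping through p16 3. Its log2 change of 0.47 ± 0.19 missed the threshold (limma, unadjusted p = 0.0321, adjusted p = 0.187). Smpd1, the acid sphingomyelinase, had means of 547 ± 152 and 489 ± 29.8, Acer3, another alkaline ceramidase, 62.0 ± 16.8 and 48.9 ± 5.17, and Asah1, the acid ceramidase, was read 4 to 15 times per papilloma. None of these 3 passed.

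Sult2b1, the sulfotransferase that makes cholesterol sulfate in the upper epidermis, was the gene that fell. Sult2b1 (ENSMUSG00000003271, chr7:45729983-45784669) was at 857, 869.7, 963 and 1174 in the controls and at 429, 466 and 467 in p16. The p16 values lay close together, below every control. The mean fell from 966 ± 147 to 454 ± 21.5, a log2 change of -1.08 ± 0.15 (limma, adjusted p = 0.00206). Elovl5, Elovl7, Acer1 and Sult2b1 passed in all 7 fits that left out 1 papilloma, with adjusted p of at most 0.0355 in limma.

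**Figure D5:**
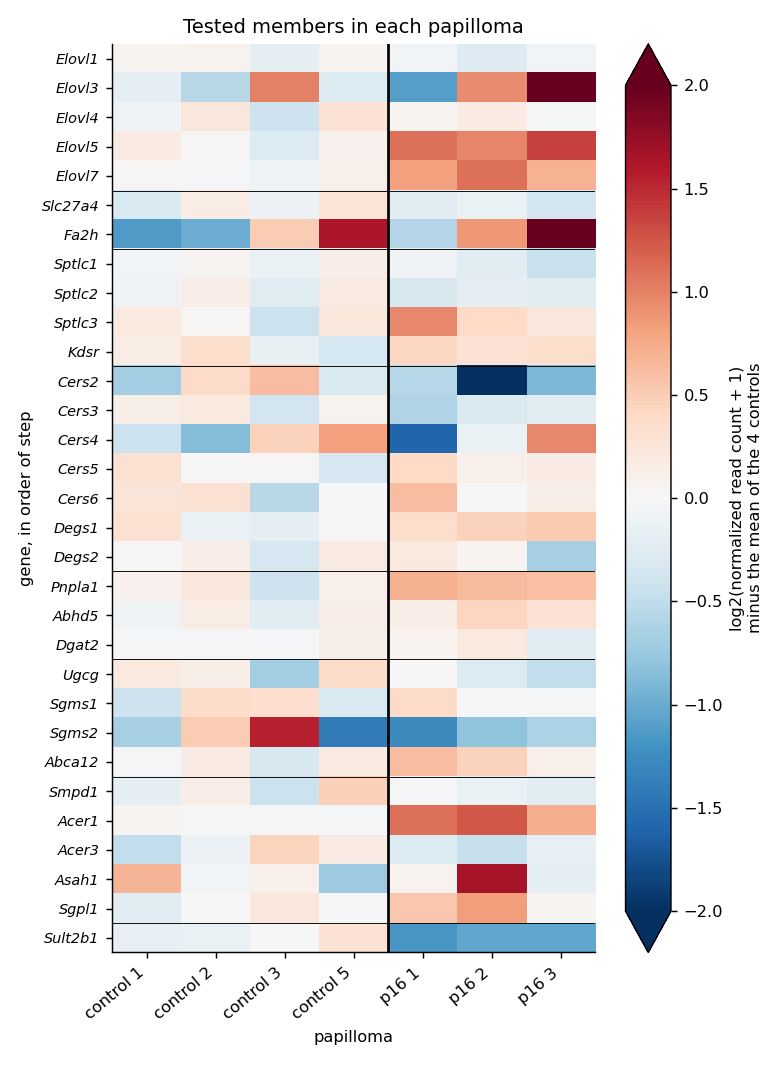
Log2(normalized read count + 1) of each tested gene (y axis, in order of step) in each papilloma (x axis), minus the mean of the 4 controls; red is above that mean and blue below it. Sult2b1 is blue and Elovl5, Elovl7, Acer1 and Pnpla1 are red in all 3 p16 papillomas, and Elovl3 and Fa2h vary within both groups.

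Other genes of the same pathways were taken from a list of 43, also chosen with earlier results of these data known. Of the 43, 42 had a row and 41 were tested. Of these, 4 rose (9.76%, against 2.66% of all genes) and 1 fell (2.44%, against 2.96%). Their median log2 change was 0.30, with 30 positive and 11 negative. Hacd2 and Tecr act after the elongases, as the dehydratase and the final reductase of the elongation cycle. Hacd2 (chr16:35022428-35109177) was at 375, 287, 284 and 272 in the controls and at 486, 544 and 612 in p16, without overlap. Its log2 change was 0.85 ± 0.16 (limma, adjusted p = 0.0104). Tecr (chr8:83571698-83607971) rose from 1755 ± 142 to 2804 ± 313, by 0.67 ± 0.14 (limma, adjusted p = 0.0186), a call lost without control 5 (adjusted p = 0.0601) or p16 2 (0.0997).

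Lipk and Lipm are lipases of the acid lipase family expressed in the uppermost epidermis. Lipk (chr19:34008290-34047835) was at 126, 85.8, 95.9 and 72.7 in the controls and at 354, 229 and 259 in p16, each p16 value above each control. Its log2 change was 1.55 ± 0.22 (limma, adjusted p = 0.00225). Lipm (chr19:34100933-34122687) rose from 396 to 663 on average, by 0.75 ± 0.17 (limma, adjusted p = 0.0286), but passed in 2 of the 7 fits that left out a papilloma, losing the call without control 2, 3 or 5 or p16 1 or 2 (adjusted p = 0.0588 to 0.122).

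Sptssb, a small subunit that shifts serine palmitoyltransferase toward longer acyl-CoA, was the gene that fell. Sptssb (chr3:69819542-69859940) was at 375, 101, 97.7 and 136 in the controls and at 60.5, 40.5 and 34.5 in p16. Control 1 stood above the other controls, but no p16 value reached any of them. The log2 change was -1.75 ± 0.41 (limma, adjusted p = 0.0302). It was -1.31 without control 1, and the call was lost without control 5, p16 2 or p16 3 (adjusted p = 0.0650 to 0.0987). Sptssb carried no mark of expression in the authors' sorted keratinocytes, whereas 31 of the 32 genes of the main list did.

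Some markers of epidermal layers and of other cell types also differed between the groups. The summed basal markers were 42361 to 65858 in controls and 31674 to 44111 in p16, and all 4 had negative log2 changes (median -0.74). Itga6, an integrin of the basal layer, fell (log2 change -0.73, limma, adjusted p = 0.0169). Krt14 (23398 to 33335 in controls, 13360 to 20580.5 in p16) and Itgb4, the partner of Itga6 (146 to 269 and 124 to 127), did not overlap between groups but missed the threshold (limma, adjusted p = 0.0593 and 0.0638), and Krt5 overlapped (18233 to 31492 and 17828 to 22954). The summed spinous markers were 13520 to 22533 in controls and 40029 to 55090 in p16, with Krt1 and Krt10 called among 4, and the summed granular markers were 37502 to 48874 and 48995 to 80872. Of 6 granular markers 4 rose, among them Flg, and Tgm3 fell, whereas Lor did not pass. Their part in the changes of Elovl5, Elovl7, Acer1, Pnpla1 and Sult2b1 was not tested.

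Of 5 adipocyte markers tested 4 rose, and among these Adipoq and Cfd reached the filter's mean of 10 only in p16. The adipocyte sum was 1840 to 11309 in controls and 2062 to 2607 in p16, most of it Fabp4, whose change had the opposite sign (1811 to 11250.2 in controls and 1317 to 2303 in p16, log2 change -1.54, limma, unadjusted p = 0.00599, adjusted p = 0.0764). Without Fabp4 the sum was 28.3 to 107 in controls and 304 to 903 in p16, Plin1 being at 0 in every control and Adipoq at 0.913 to 12.6 in controls against 22.9 to 55.9 in p16. Car3 was the largest part of this sum in each p16 papilloma, at 137, 698 and 295, against 12.8 to 38.7 in controls. It was highest in p16 2, as was the summed level of the muscle markers. Skeletal muscle markers summed to 182 to 558 in controls and to 246, 10012 and 2127 in p16 1, 2 and 3. Of these 8 markers 0 were called, but all 8 had positive log2 changes (median 2.60). At an unadjusted p under 0.05 in limma 7 of the 8 were higher, against 9.66% of all genes. Fibroblast markers gave 1 call among 6, and leukocyte and endothelial markers 0 of 5 each. The adipocyte and muscle markers were also averaged, on the log2 scale, into 1 score for each papilloma. It pooled adipocyte markers that separated the groups with others that did not, Fabp4 among them, and with muscle markers, none of which did. With this score as a covariate the log2 changes were 1.04 for Elovl5, 0.67 for Elovl7, 0.97 for Acer1, 0.48 for Pnpla1 and -1.12 for Sult2b1. Each kept its sign. None of the 5 then passed (limma, adjusted p = 0.184 to 0.634), in a fit whose median standard error over the 31 genes was 0.360 rather than 0.192. The mouse gene Cdkn2a, whose human counterpart is the transgene, was at 34.4 ± 17.1 in controls and 14.8 ± 10.5 in p16 (limma, adjusted p = 0.175), which does not check the labels.

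Reads near transcript ends can come from a gene on the opposite strand, and the sources used here do not give how strand was treated. Annotated genes on the other strand overlap the 3′ ends of Elovl1, Elovl3, Sptlc3, Cers2, Cers4, Degs2 and Abhd5. For these 7 the reads of the pair could be mixed if strand was ignored in counting. None of the 5 called genes of the main list was among them, and the other pathway genes were not examined for such overlap.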

How the data were processed

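RNA of 7 whole papillomas was profiled by CEL-Seq2. The authors used Cutadapt for trimming, TopHat2 for alignment to GRCm38, HTSeq for counting and DESeq2 for testing. The sources used here do not give versions, or how strand and reads matching several genes were treated. The deposited signal values are the authors' normalized read counts, for which each papilloma's reads were divided by its own size factor from DESeq2. The table also holds a comparison by the authors of p16 with control papillomas, namely log2 fold change, its standard error, a Wald statistic (a score) and p-values. None of these deposited columns was used. Every value was a whole multiple of 1 read (100% at a tolerance of 0.001), so reads were recovered for depth (1158035 to 4365391 per papilloma) and count-based alternatives. Reads were not collapsed to molecules here, and the effect of depth was not tested.

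Papillomas were grouped by title. The main test was limma 3.58.1 (R 4.3.3) with an intensity trend on log2(value + 1), for the 10466 genes whose mean reached 10 in at least 1 group. Ratios, taken after adding 1 to each value, were compared by exact permutation. Alternatives were edgeR 4.0.16, DESeq2 1.42.0, other pseudocounts (0.5 and 4), filters (none, and a mean of 50) and scalings (TMM, library totals). Others were keratinocyte-marked genes only, a replicate block, 1 pooled adipocyte and muscle score as a covariate, and leaving out each papilloma. The limma script was tested on simulated data. Promoter windows came from RefSeq (GRCm38.p6) and gene coordinates from GENCODE M21 (GRCm38). Where a marker symbol had several rows, the row whose identifier carries that symbol in GENCODE M21 was used.

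The genes and lists were chosen with earlier results of these data known. Every member was accounted for. Values in each papilloma were given for members past the test or at an unadjusted p under 0.05, and others were named from the pathway list where they passed and from the defining markers. Cdkn2a, the markers Itga6, Itgb4, Tgm3, Fabp4, Car3 and Cfd, and the sebocyte markers other than the defining ones were named after their values were seen. The values of Fa2h in each papilloma were likewise given after they were seen.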

Additional observations from a re-analysis of the deposited data

Results flagged for a closer look

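Sets of 4 control values were examined for genes and for the log2 ratios, 42 sets in all. In 5 of them, all for genes, 1 control was far from the other 3 (Dixon's test at the 95% level), where chance flags about 1 in 20. Elovl1 was lowest in control 3, at 710.3 against 844 to 853. Elovl3 was highest in control 3, at 9.13 against 2.42 to 3.42, on 10 reads. Dgat2 was highest in control 5, at 533 against 479 to 483. Hacd2 and Sptssb were both highest in control 1, each at 375, against 272 to 287 and 97.7 to 136. Groups of 3 were not examined.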

How the results depend on the processing

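The counts of 4 rises and 1 fall among the 31 genes were 0 and 0 with the adipocyte and muscle covariate. They were 3 to 4 and 1 to 1 when each papilloma was left out. Among the other pathway genes, 4 rises became 0 with the covariate and 2 to 4 with a papilloma left out (2 without control 5 or p16 2). The 1 fall, Sptssb, became 3 in DESeq2, 0 with the covariate, and 0 to 3 with a papilloma left out (3 without control 3, 0 without control 5, p16 2 or p16 3). Among keratinocyte-marked genes it was 0, but that fit left Sptssb out beforehand because it carries no such mark. Pnpla1 was also lost with no filter (limma, adjusted p = 0.0508).

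Over the 31 genes and all alternatives, 513 results kept their direction and side of the threshold, 20 changed sign, 14 lost a call and 1 gained one. No gene that changed sign had passed the test. With the covariate the log2 change was -0.53 for Elovl3, -0.21 for Elovl4, 0.062 for Cers2, -0.052 for Abhd5, -0.021 for Dgat2, 0.084 for Acer3 and -0.46 for Asah1. In edgeR it was 0.015 for Cers4. With a papilloma left out, it ranged from -0.082 to 0.15 for Elovl4, -0.86 to 0.41 for Cers4, -0.31 to 0.12 for Degs2, -0.079 to 0.14 for Dgat2, -0.013 to 0.25 for Sgms1 and -0.27 to 0.037 for Smpd1. The causes were not tested. Differences of ratios ranged from 0.51 to 0.93 for Sptlc3 to Sptlc2, -0.80 to -0.28 for Degs2 to Degs1, -1.39 to -0.62 for Sgms2 to Sgms1, 0.06 to 0.26 for Elovl4 to Elovl1 and 0.32 to 1.19 for Cers3 to Cers2. Over all genes, calls numbered 588, and 543 in edgeR, 786 in DESeq2, 270 with a replicate block, 16 with the covariate and 267 to 548 with a papilloma left out.

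The labels do not say that replicate numbers pair papillomas, and same-numbered papillomas did not deviate together (correlations of -0.0920, -0.00577 and -0.0522 across genes, other combinations -0.0683 to 0.110). A replicate block, without control 5, called 4 member genes, losing Pnpla1 (limma, adjusted p = 0.132). It called 1 other pathway gene higher, Lipk, losing Hacd2 (0.0992), Tecr (0.108) and Lipm (0.108), and gave 0.023 for Cers4 and 0.037 for Smpd1. Standard errors were widest for Elovl3, Fa2h, Sgms2, Asah1, Cers4 and Cers2 (0.52 to 0.85), and how far depth or the spread between lesions sets them was not tested.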
